A study of Mus musculus with 4 samples.

Results

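Zinc transporters and metallothioneins move and buffer the zinc that β-cells pack with insulin. The 9 genes described here are 4 exporters of the ZnT family (Slc30a8, Slc30a1, Slc30a5 and Slc30a7), 3 importers of the ZIP family (Slc39a6, Slc39a7 and Slc39a14) and the metallothioneins Mt1 and Mt2. They were taken by symbol from a table of 23420 genes, all 9 were found once, and all 9 were among the 14649 genes that passed a filter on low counts. RNA sequencing was done on pancreatic β-cells sorted by FACS, in 2 libraries labelled Bmal1KO (Bmal1 knockout with DTA) and 2 labelled Bmal1Het (Bmal1+/- with DTA). Mice of both groups had 10 days of doxycycline, which per the design text induced a massive ablation of β-cells, so every library holds cells that were left after it. The sources used here do not give the promoter behind DTA, the Cre or allele of Bmal1, the age, the strain, or the number of animals pooled, and there is no group without ablation. No label says which animals the replicates came from, so p-values measure only how these libraries vary, and for the libraries labelled Bmal1Het that spread may be technical.

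Insulin is stored in the granules of β-cells as crystals of hexamers held together by zinc. ZnT proteins move zinc out of the cytosol, into organelles or out of the cell, and ZIP proteins bring it into the cytosol from outside or from organelles. Metallothioneins are small proteins whose many cysteines bind zinc and copper. Their genes and the gene of the surface exporter ZnT1 are switched on by the zinc sensor MTF1, and metallothionein genes also respond to glucocorticoids and to oxidative stress. Human SLC30A8 is a known type 2 diabetes gene, and its protein ZnT8 is an autoantigen in type 1 diabetes.

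Totals ran from 31056116 to 38020488 counts per library, and levels below are CPM, counts scaled to library size after TMM normalization, in which 3 counts equal 0.0775 to 0.0937 CPM. The β-cell markers Ins1, Ins2, Iapp, Mafa, Pdx1, Nkx6-1, Slc2a2 and Ucn3 were read in every library and summed to 272778 and 233857 CPM in the libraries labelled Bmal1KO, against 215011 and 273949 CPM in those labelled Bmal1Het. That sum is mostly Ins2, Iapp and Ins1. Gene by gene, 6 of the 8 had a lower level in the libraries labelled Bmal1KO (median log2 fold change -0.37). Of these, 5 had no overlap between the groups: Ins1, Mafa, Pdx1, Nkx6-1 and Ucn3. Among all genes tested, 49% had no overlap and 6979 of 14649 had a lower level. Of the 8 markers, Ucn3 fell (-2.04, edgeR adjusted p = 0.016) and 7 did not pass. Pdx1 had 116 and 136 CPM in the libraries labelled Bmal1KO, against 172 and 190 CPM. Arntl, the gene of BMAL1, had 75.8 and 65.6 CPM in the libraries labelled Bmal1KO, against 23.0 and 14.98 CPM in those labelled Bmal1Het, a log2 fold change of 1.89 (adjusted p = 0.0175; 1.61 and adjusted p = 0.0724 without Bmal1Het replicate 2). Whole-gene counts do not show whether a part of Arntl is missing. Its higher RNA thus does not settle the label, and each group is named by its label only. Sex-linked RNA differed between the replicates labelled Bmal1KO and between the groups. Xist had 8.68 and 38.8 CPM in the libraries labelled Bmal1KO, against 72.3 and 67.5 CPM in those labelled Bmal1Het. The Y-linked Ddx3y had 89.1 and 23.8 CPM, against 20.5 and 12.1 CPM, and Eif2s3y 135.6 and 32.3 CPM, against 36.9 and 20.2 CPM. Xist was thus lower and Ddx3y higher in both libraries labelled Bmal1KO, while Eif2s3y overlapped, and none of them passed. The part of sex in the fold changes below was not tested.

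**Figure D1:**
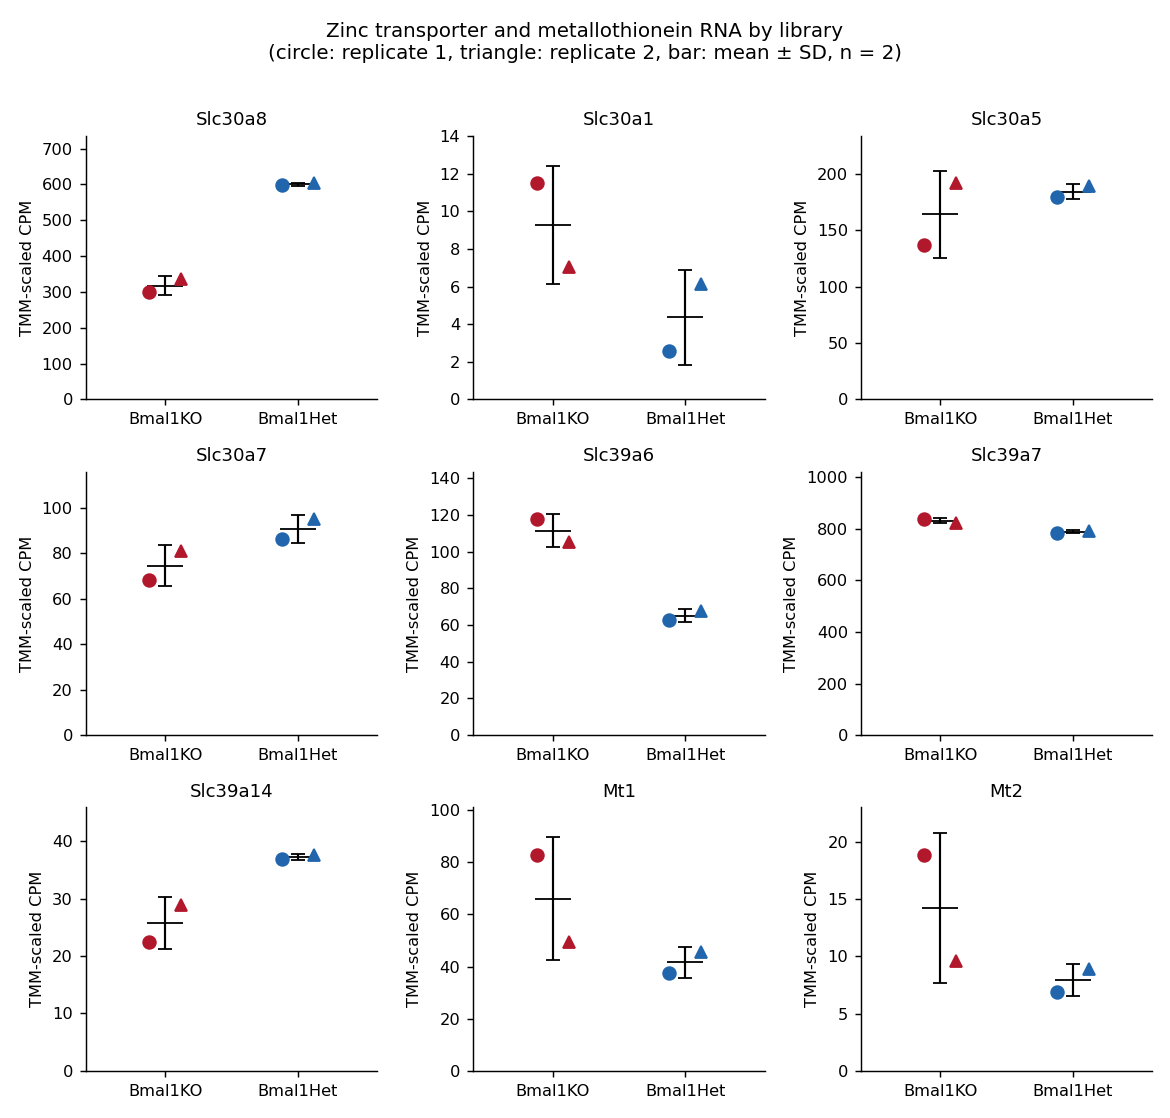
TMM-scaled CPM of the 9 genes in each library, with the libraries labelled Bmal1KO in red on the left and those labelled Bmal1Het in blue on the right. Bars show mean ± SD over 2 libraries. Slc30a8 sits near 300 CPM on the left and near 600 CPM on the right, and Slc30a5 is the 1 gene whose groups overlap.

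Of the 9 genes, Slc30a8 fell and Slc39a6 rose in the libraries labelled Bmal1KO, while 7 did not pass edgeR's quasi-likelihood test at an adjusted p of 0.05 over all genes tested. Of all genes tested, 2.54% passed, 1.34% as lower and 1.2% as higher. For 8 of the 9 genes no library of a group lay within the range of the other group, 5 of them higher and 3 lower, and the same held for 49% of all genes tested. The median log2 fold change was 0.07 over the 9 genes and 0.024 over all genes tested. Slc30a8 ranked 159 and Slc39a6 350 by p among the 14649 genes, of which 372 passed.

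Slc30a8 (chromosome 15, 52295553 to 52335798, GRCm38, plus strand) encodes ZnT8, which loads zinc into insulin granules. It had 299 and 336 CPM in the libraries labelled Bmal1KO, against 597 and 603 CPM in those labelled Bmal1Het, from 9812 and 10753 counts against 23125 and 19918. Both libraries labelled Bmal1KO lay far below both labelled Bmal1Het, which differed from each other by little. The means were 317 ± 26.2 and 600.01 ± 4.08 CPM (SD, n = 2 each), the ratio of means was 0.529, and the log2 fold change was -0.92 (SE 0.14, edgeR adjusted p = 0.0230). No exon of another annotated gene overlaps it. In bulk RNA, fewer cells of a type and less RNA per cell cannot be told apart, and the part of the lower β-cell markers in this value was not tested. The fold change stayed between -1.01 and -0.86 with any 1 library left out, but the call was lost without Bmal1Het replicate 1 (-0.93, adjusted p = 0.0773) and without Bmal1Het replicate 2 (-0.93, adjusted p = 0.127).

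Most ZnT proteins hold zinc between a histidine and an aspartate in each of a pair of membrane helices, in the pattern H-x-x-x-D. The stretches below are coding sequence of the GENCODE M21 transcripts (GRCm38), 15 codons each, shown because they are the part of these exporters that touches the zinc; capitals mark the histidine and the aspartate codon. For Slc30a8 they are codons 105 and 109, then 219 and 223, of 367, and the other 3 genes are shown at the first site of that pair, at codons 43 and 47 of Slc30a1, 449 and 453 of Slc30a5 and 70 and 74 of Slc30a7.
Slc30a8, codons 100 to 114: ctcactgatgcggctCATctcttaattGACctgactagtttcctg
Slc30a8, codons 214 to 228: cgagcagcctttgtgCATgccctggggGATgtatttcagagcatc
Slc30a1, codons 38 to 52: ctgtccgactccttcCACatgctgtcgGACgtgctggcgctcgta
Slc30a5, codons 444 to 458: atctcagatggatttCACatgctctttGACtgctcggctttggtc
Slc30a7, codons 65 to 79: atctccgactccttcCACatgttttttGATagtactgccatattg
The 4 exporters share the pattern and differ in where they act and, as the next values show, in level.

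Ratios within a library do not depend on how libraries are scaled to each other. Slc30a8 took 46.0% and 42.7% of all counts on the 10 ZnT genes in the libraries labelled Bmal1KO, against 58.4% and 57.6% in those labelled Bmal1Het. It was the largest of the ZnT genes per kilobase too, with 63.6% and 60.6% of their counts per kilobase in the libraries labelled Bmal1KO, against 74.7% and 74.0%. For each 1000 counts of Ins2, the main insulin gene of the mouse, there were 1.54 and 1.99 counts of Slc30a8 in the libraries labelled Bmal1KO, against 3.94 and 3.22 in those labelled Bmal1Het. Against Pdx1, a transcription factor gene of β-cells, the ratio of counts was 2.57 and 2.47 in the libraries labelled Bmal1KO, against 3.47 and 3.18. Each of these 4 measures was lower in both libraries labelled Bmal1KO than in either labelled Bmal1Het. All 4 have Slc30a8 counts in the numerator, so they share its lower counts and are not separate evidence. With 2 libraries a group, an exact 2-sided permutation test of such a ratio cannot go below p = 0.333, so none was run.

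**Figure D2:**
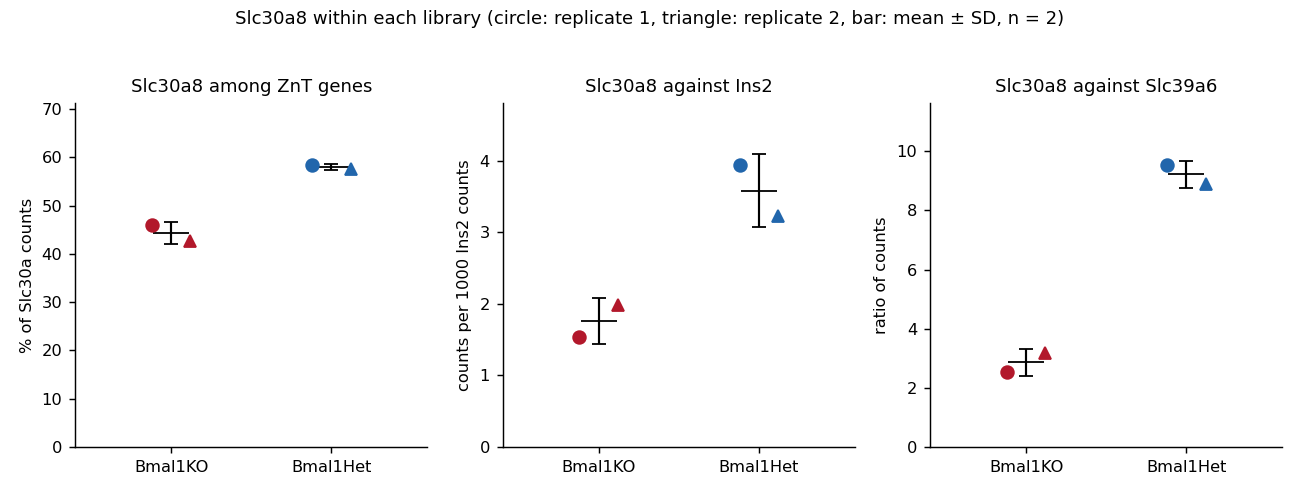
Slc30a8 in each library as a percentage of all Slc30a counts, as counts per 1000 Ins2 counts and as a ratio to Slc39a6 counts, with bars for mean ± SD over 2 libraries. The libraries labelled Bmal1KO (left, red) lie below those labelled Bmal1Het (right, blue) in all 3 panels. Counts of Slc30a8 per Slc39a6 count were 2.54 and 3.19, against 9.53 and 8.90. All 3 panels have Slc30a8 in the numerator, and Slc39a6 is the gene that rose.

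The exporters of the early secretory pathway did not pass. Slc30a5 encodes ZnT5, which works with ZnT6 to bring zinc to enzymes of the Golgi, and had 137 and 192 CPM in the libraries labelled Bmal1KO, against 180 and 189 CPM in those labelled Bmal1Het (log2 fold change -0.17, SE 0.19, adjusted p = 0.718). The groups overlap, and without Bmal1KO replicate 1 the log2 fold change was 0.03. Slc30a7 encodes ZnT7, also of the Golgi, and had 68.0 and 80.9 CPM in the libraries labelled Bmal1KO, against 86.3 and 94.9 CPM (log2 fold change -0.28, SE 0.16, adjusted p = 0.433). Part of its exons, 1780 bases, overlaps pseudogenes on the other strand, which an unstranded count cannot separate. Of the 6 other ZnT genes, Slc30a2 and Slc30a3 had no counts, Slc30a10 had 3 counts in 1 library, and Slc30a4, Slc30a6 and Slc30a9 were tested and did not pass. Slc30a6, the partner of ZnT5, had 34.9 and 34.1 CPM in the libraries labelled Bmal1KO, against 27.8 and 31.4 CPM (log2 fold change 0.22, adjusted p = 0.609). Slc30a4, a vesicle exporter, had a log2 fold change of -0.35 (adjusted p = 0.567).

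Among the importers, Slc39a6 rose. It encodes ZIP6, an importer of the cell surface, and had 118 and 105 CPM in the libraries labelled Bmal1KO, against 62.6 and 67.7 CPM in those labelled Bmal1Het, from 3868 and 3371 counts against 2426 and 2237. Both libraries labelled Bmal1KO lay well above both labelled Bmal1Het. The means were 112 ± 8.84 and 65.2 ± 3.58 CPM (SD, n = 2 each), and the log2 fold change was 0.77 (SE 0.15, edgeR adjusted p = 0.0481), just inside the threshold. The call was lost without Bmal1KO replicate 1 (0.67, adjusted p = 0.0840), Bmal1Het replicate 1 (0.71, adjusted p = 0.277) or Bmal1Het replicate 2 (0.82, adjusted p = 0.256). Its share of all counts on the 14 ZIP genes was 8.87% and 8.11% in the libraries labelled Bmal1KO, against 4.70% and 5.19%.

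Slc39a7 encodes ZIP7, which releases zinc from the endoplasmic reticulum, and was the most abundant of the ZIP genes. It had 838 and 824 CPM in the libraries labelled Bmal1KO, against 785 and 792 CPM in those labelled Bmal1Het (log2 fold change 0.07, SE 0.13, adjusted p = 0.830). The groups did not overlap, yet the levels were within a few percent of each other. Of its exon bases, 2084 are shared with a processed transcript on the same strand. Slc39a14 encodes ZIP14, which carries zinc, iron and manganese, and had 22.5 and 28.9 CPM in the libraries labelled Bmal1KO, against 36.9 and 37.6 CPM (log2 fold change -0.54, SE 0.20, adjusted p = 0.236). Both libraries labelled Bmal1KO were lower, without passing.

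Of the 11 other ZIP genes, 10 were tested and none passed edgeR's test. Slc39a9 and Slc39a11, importers placed at the Golgi, had the smallest p. Slc39a9 had 97.4 and 98.4 CPM in the libraries labelled Bmal1KO, against 129 and 137 CPM (log2 fold change -0.44, unadjusted p = 0.0149 and adjusted p = 0.169 in edgeR), and 459 of its exon bases overlap the coding gene Erh on the other strand. Slc39a11 had 51.6 and 47.6 CPM in the libraries labelled Bmal1KO, against 83.0 and 64.0 CPM (log2 fold change -0.57, unadjusted p = 0.0159 and adjusted p = 0.174 in edgeR). The median of the 10 was -0.33, with 3 at a higher and 7 at a lower level, beside 0.024 over all genes tested.

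**Figure D3:**
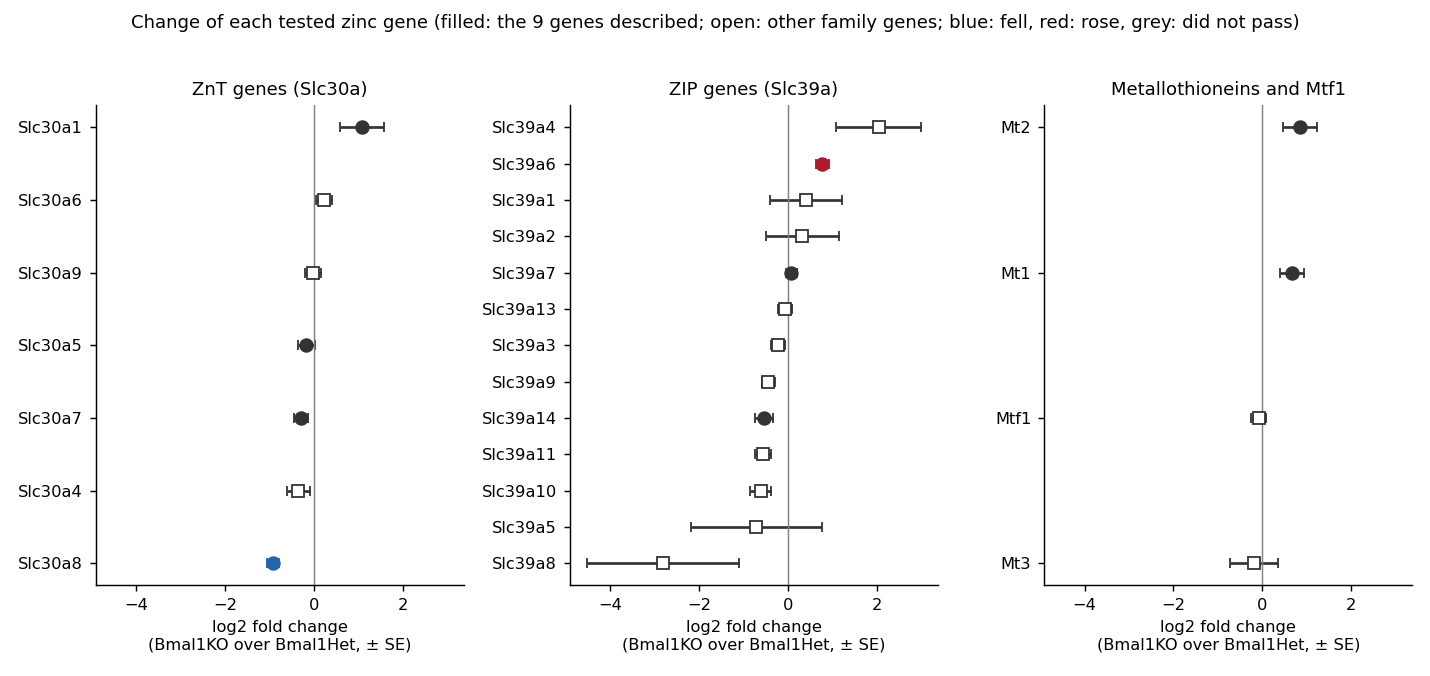
Log2 fold change ± SE (edgeR, Bmal1KO over Bmal1Het) of every tested ZnT gene, ZIP gene, metallothionein and Mtf1, ordered by size. Slc30a8 is the 1 gene in blue (fell) and Slc39a6 the 1 in red (rose); filled circles are the 9 genes and open squares the other family genes.

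Mt1 and Mt2 lie side by side on chromosome 8 (94179082 to 94180327 and 94172664 to 94173568, GRCm38, plus strand). Mt1 had 82.8 and 49.3 CPM in the libraries labelled Bmal1KO, against 37.4 and 45.7 CPM in those labelled Bmal1Het (log2 fold change 0.67, SE 0.26, adjusted p = 0.259). Mt2 had 18.8 and 9.62 CPM in the libraries labelled Bmal1KO, against 6.92 and 8.93 CPM (log2 fold change 0.85, SE 0.38, adjusted p = 0.327). Bmal1KO replicate 1 held by far the highest level of both, and replicate 2 lay just above the libraries labelled Bmal1Het. Without Bmal1KO replicate 1 the log2 fold changes were 0.22 and 0.25, and without Bmal1KO replicate 2 they were 0.99 (adjusted p = 0.0370) and 1.25 (adjusted p = 0.0628).

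Slc30a1, the gene of the exporter ZnT1 at the cell surface, was low, with 11.5 and 7.06 CPM in the libraries labelled Bmal1KO, against 2.58 and 6.14 CPM in those labelled Bmal1Het (log2 fold change 1.09, SE 0.50, adjusted p = 0.332). Its lowest value, in Bmal1Het replicate 1, rests on 100 counts, and 468 of its exon bases overlap the antisense gene 1700034H15Rik. Without that library the log2 fold change was 0.59, and without Bmal1Het replicate 2 it was 1.83; without Bmal1KO replicate 1 it was 0.67. There were 7.21 and 6.99 counts of Mt1 for each count of Slc30a1 in the libraries labelled Bmal1KO, against 14.5 and 7.44 in those labelled Bmal1Het. Mtf1, the zinc sensor gene, had 51.6 and 43.4 CPM in the libraries labelled Bmal1KO, against 47.1 and 53.6 CPM (log2 fold change -0.08, adjusted p = 0.869), with 721 exon bases that overlap the coding gene 1110065P20Rik on the other strand. Mt3, a metallothionein best known from brain, had 2.16 and 2.15 CPM in the libraries labelled Bmal1KO, against 2.27 and 2.63 CPM (log2 fold change -0.18, adjusted p = 0.914), and Mt4 had 1 count in all.

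The coding sequences of Mt1 and Mt2 (GENCODE M21, GRCm38) are shown because the cysteines, whose codons are in capitals, are what binds the metal.
Mt1: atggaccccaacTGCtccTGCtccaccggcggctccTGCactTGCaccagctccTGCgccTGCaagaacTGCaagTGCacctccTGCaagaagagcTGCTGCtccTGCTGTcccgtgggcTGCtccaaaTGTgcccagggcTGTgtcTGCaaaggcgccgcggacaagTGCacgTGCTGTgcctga
Mt2: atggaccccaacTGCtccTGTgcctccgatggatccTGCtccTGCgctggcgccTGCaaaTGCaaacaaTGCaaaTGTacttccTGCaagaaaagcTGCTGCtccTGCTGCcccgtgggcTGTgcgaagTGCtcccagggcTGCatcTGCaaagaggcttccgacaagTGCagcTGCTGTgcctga
Each has 20 cysteine codons among 61, and all 20 stand at the same place in both. The genes share 79.6% of these 186 bases, with no identical run longer than 20 bases. The ratio of Mt1 to Mt2 counts was 4.39 and 5.13 in the libraries labelled Bmal1KO, against 5.40 and 5.12 in those labelled Bmal1Het, so the pair kept to a narrow range. An antisense gene overlaps 432 exon bases of Mt2, and counts without strand cannot part them.

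Promoters of Mt1, Mt2 and Slc30a1 are shown because MTF1 is known to act on these genes through metal response elements and because all 3 were higher in both libraries labelled Bmal1KO, without passing the test. They are the 250 bases before each RefSeq start (GRCm38.p6, plus strand), and capitals mark the core of the metal response element, searched as TGCACNC or TGCGCNC on both strands.
Mt1, chr8:94178839-94179088: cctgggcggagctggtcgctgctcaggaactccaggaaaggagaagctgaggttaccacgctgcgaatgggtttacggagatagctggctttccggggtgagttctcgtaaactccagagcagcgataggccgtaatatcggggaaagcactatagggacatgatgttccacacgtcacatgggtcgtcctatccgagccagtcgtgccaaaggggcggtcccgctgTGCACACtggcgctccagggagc
Mt2, chr8:94172368-94172617: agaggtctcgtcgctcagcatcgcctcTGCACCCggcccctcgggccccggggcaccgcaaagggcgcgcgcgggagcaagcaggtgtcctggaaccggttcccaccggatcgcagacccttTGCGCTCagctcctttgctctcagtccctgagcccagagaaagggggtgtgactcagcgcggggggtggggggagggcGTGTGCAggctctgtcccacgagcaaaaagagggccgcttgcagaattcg
Slc30a1, chr1:191906531-191906780: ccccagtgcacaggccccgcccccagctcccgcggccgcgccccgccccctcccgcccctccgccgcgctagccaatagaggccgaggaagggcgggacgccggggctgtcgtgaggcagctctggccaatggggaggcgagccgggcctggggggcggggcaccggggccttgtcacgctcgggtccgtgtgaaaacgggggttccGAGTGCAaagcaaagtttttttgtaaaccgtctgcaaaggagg
The core is found 1 time for Mt1, 3 times for Mt2 and 1 time for Slc30a1 in these bases, and 21.4% of 32851 promoters hold it at least 1 time. With the first 50 bases after the start the numbers are 3, 4 and 2. Of all promoters, 25.7% then have 1 or more and 1.97% have 3 or more. The numbers thus depend on the start and the stretch used, and bases farther into each gene were not searched. The E-box CACGTG, the letters that BMAL1 and CLOCK bind, was in none of the 3 and in 6.02% of promoters. Of the 9 genes, 6 were matched in the promoter table, and among the 3 not shown Slc30a5 had 1 core and 1 E-box, while Slc30a7 and Slc39a7 had neither. A match describes these letters and shows no binding.

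Markers of stress and of other cells are given here beside the metallothioneins. The summed level of 14 dissociation and immediate early genes was 2170.0 and 1373.9 CPM in the libraries labelled Bmal1KO, against 862 and 913 CPM in those labelled Bmal1Het. Of the 14, 5 rose (Fos, Junb, Egr1, Ier2 and Zfp36), the rest did not pass, and all had a higher level. Of all 14649 genes tested, 1.2% rose and 7670 had a higher level. The dissociation sum was highest in Bmal1KO replicate 1, though some of the 14 genes were higher in Bmal1KO replicate 2. The 10 stromal markers summed to 137 and 377 CPM in the libraries labelled Bmal1KO, against 61.1 and 20.9 CPM; 3 of 8 tested rose (Col1a2, Lum and Pdgfra), and Pdgfra had no counts in either library labelled Bmal1Het. The 9 immune markers found summed to 406 and 1184.8 CPM in the libraries labelled Bmal1KO, against 399.9 and 480.1 CPM, and none passed. These 2 sums were highest in Bmal1KO replicate 2. The stromal markers Acta2, Pdgfrb and Rgs5, low in every library, were highest in Bmal1KO replicate 1. None of the 8 acinar, 6 duct and 4 endothelial markers tested passed edgeR's test, but most had a higher level in the libraries labelled Bmal1KO. Of the acinar markers 7 of 8 were higher (median log2 fold change 1.80). Of the 8, 4 had an unadjusted edgeR p under 0.05: Cela1, Ctrb1 and Pnlip were higher and Bhlha15 was lower. Prss2, a trypsinogen gene, had 54.3 and 5.21 CPM in the libraries labelled Bmal1KO, against 6.998 and 0.121 CPM, with overlap. The acinar sum was 336 and 275 CPM in the libraries labelled Bmal1KO, against 317 and 310.2 CPM. It is mostly Bhlha15, which had 179 and 211 CPM, against 269 and 299.9 CPM. Amy2a5 was at 0 in every library. Of the duct markers 4 of 6 were higher (median 0.48). Of the 6, 3 had an unadjusted edgeR p under 0.05: Krt7, with the smallest p, was lower, and Sox9 and Muc1 were higher. Sox9 had 6.42 and 6.00 CPM in the libraries labelled Bmal1KO, against 1.21 and 2.48 CPM. The duct sum was 569 and 548 CPM in the libraries labelled Bmal1KO, against 742 and 818 CPM. It is mostly Krt7, which had 368 and 397 CPM, against 567 and 663 CPM. Endothelial markers, 4 of 4 higher, summed to 37.4 and 17.7 CPM in the libraries labelled Bmal1KO, against 14.3 and 10.7 CPM. Among hormone cells, α-cell markers summed to 2912 and 4534 CPM in the libraries labelled Bmal1KO, against 2686 and 3304 CPM, with Irx2 as the 1 of 5 that rose, and δ- and PP-cell markers to 2938 and 6144 CPM, against 2627 and 2392 CPM, with none passing. Without Bmal1Het replicate 2 none of the 9 marker and dissociation genes named here as risen passed. The part of these markers in the values of Slc30a8, Slc39a6, Mt1 and Mt2 was not tested.

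**Figure D4:**
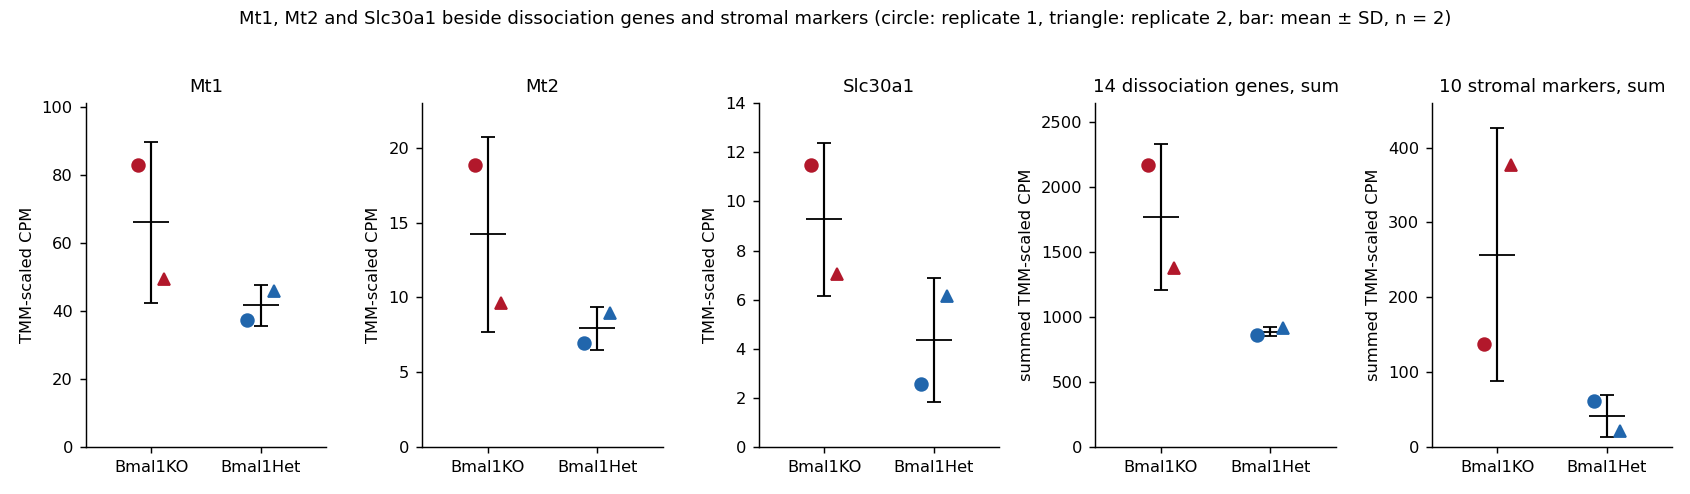
TMM-scaled CPM of Mt1, Mt2 and Slc30a1 beside the summed CPM of 14 dissociation genes and of 10 stromal markers, by library, with mean ± SD over 2 libraries. Mt1, Mt2, Slc30a1 and the dissociation sum are highest in Bmal1KO replicate 1 (red circle), and the stromal sum in Bmal1KO replicate 2 (red triangle).

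Levels can be compared between genes per kilobase of transcript, here the first GENCODE transcript of each. In the libraries labelled Bmal1KO the order was Slc39a7 (358 ± 4.18 CPM per kilobase), Slc30a8 (161 ± 13.3), Mt1 (120.3 ± 43.1), Slc30a5 (51.7 ± 12.2), Slc39a6 (28.7 ± 2.28), Mt2 (27.9 ± 12.8), Slc39a14 (12.2 ± 2.15), Slc30a7 (8.25 ± 1.01) and Slc30a1 (1.77 ± 0.60), each mean ± SD over 2 libraries. In those labelled Bmal1Het, Slc39a7 (340.0 ± 2.10) and Slc30a8 (304 ± 2.07) again led, followed by Mt1 (75.7 ± 10.8), Slc30a5 (58.0 ± 2.16), Slc39a14 (17.7 ± 0.24), Slc39a6 (16.8 ± 0.92), Mt2 (15.5 ± 2.78), Slc30a7 (10.0 ± 0.68) and Slc30a1 (0.83 ± 0.48). In the libraries labelled Bmal1KO, mean ± SD overlapped for Slc30a8 and Mt1, for Slc30a5 and Mt2 and for Slc39a6 and Mt2. In those labelled Bmal1Het it overlapped among Slc39a14, Slc39a6 and Mt2, so these places in the order are not resolved. Other places depend on the transcript chosen. Divided by all annotated exon bases, Slc39a7 and Slc30a8 were level in the libraries labelled Bmal1Het, at 305.3 ± 1.88 and 304 ± 2.07 CPM per kilobase. On that scale Slc30a5 stood at 22.5 ± 5.33 in the libraries labelled Bmal1KO, below Slc39a6 (27.4 ± 2.17) and Mt2 (24.2 ± 11.1) with overlap, while Slc39a14 was at 2.44 ± 0.43 and Mt1 at 53.0 ± 19.0.

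Genes of neighbouring pathways were counted from fixed lists in the same fit. Of 11 genes of insulin, its processing and the granule that ZnT8 serves, Chga, Vgf and Pcsk1 fell, none rose and 8 did not pass, with a median of -0.48, where 1.34% of all genes tested fell. Without Bmal1Het replicate 2 none of the 3 passed (adjusted p = 0.0688 for Chga, 0.0557 for Vgf and 0.228 for Pcsk1), and Pcsk1 also did not pass without Bmal1Het replicate 1 (0.0889) or with library sizes alone (0.0545). Pcsk1, which encodes an enzyme that cuts proinsulin, had 429 and 532 CPM in the libraries labelled Bmal1KO, against 817 and 912 CPM (log2 fold change -0.85, adjusted p = 0.0449). Chga and Vgf, genes of granule proteins, had log2 fold changes of -1.02 and -1.77 (adjusted p = 0.0175 each), while Ins2 had 0.10 (adjusted p = 0.784) and Ins1 -0.38 (adjusted p = 0.254). None of 10 copper genes passed, with a median of 0.05: Slc31a1, the copper importer of the cell surface, had 72.3 and 82.4 CPM in the libraries labelled Bmal1KO, against 98.4 and 115 CPM (adjusted p = 0.202), and Atp7b, a copper pump, had 0 and 0 counts against 27 and 12 (adjusted p = 0.129). None of 15 iron genes passed, with a median of -0.02, and Fth1 (0.38, adjusted p = 0.290), the heavy chain of the iron store ferritin, and Trf (1.42, adjusted p = 0.291) had the smallest p.

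Genes that respond to oxidative stress or glucocorticoids, other known inducers of metallothioneins, were read in the same fit, and none passed. The part of these inducers in the values of Mt1 and Mt2 was not tested. Of 7 genes of oxidative or heavy metal stress, the median log2 fold change was -0.08. Srxn1, which repairs oxidized peroxiredoxins, had 66.0 and 101 CPM in the libraries labelled Bmal1KO, against 135 and 154 CPM (-0.79, adjusted p = 0.128), and Hmox1, heme oxygenase, had 6.94 and 6.84 CPM, against 6.07 and 2.30 CPM (0.72, adjusted p = 0.545). Of 7 genes of the glucocorticoid response the median was 0.26. Dusp1, a phosphatase gene that is also an early response gene, had 111 and 70.1 CPM in the libraries labelled Bmal1KO, against 51.5 and 37.5 CPM (1.03, adjusted p = 0.103), and Nr3c1, the receptor itself, 50.5 and 55.1 CPM, against 70.6 and 80.8 CPM (-0.52, adjusted p = 0.163). At an unadjusted p under 0.05, where 16.9% of all genes tested lay, edgeR put 4 of the 9 genes, 7 of 11 insulin and granule genes, 8 of 14 dissociation genes, 3 of 10 other ZIP genes, 2 of 10 copper genes, 3 of 15 iron genes, 1 of 7 oxidative stress genes and 3 of 7 glucocorticoid genes.

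The genes whose pattern over the 4 libraries was most like that of Slc30a8 were G6pc2, the islet form of glucose-6-phosphatase, Rbl1 and Sphkap, at distances of 0.050, 0.052 and 0.053. The distance is the Euclidean one between log2 CPM values centred on each gene's mean, over 8894 genes at 10 CPM or more, of which 66 lay within 0.25. For Mt1 the nearest were Gem (0.065), Maneal (0.074) and Igfbp7 (0.101), and for Mt2 Akt1 (0.075), Fam117b (0.087) and Ttc7b (0.116). With 4 libraries, such likeness is a description of these values.

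**Figure D5:**
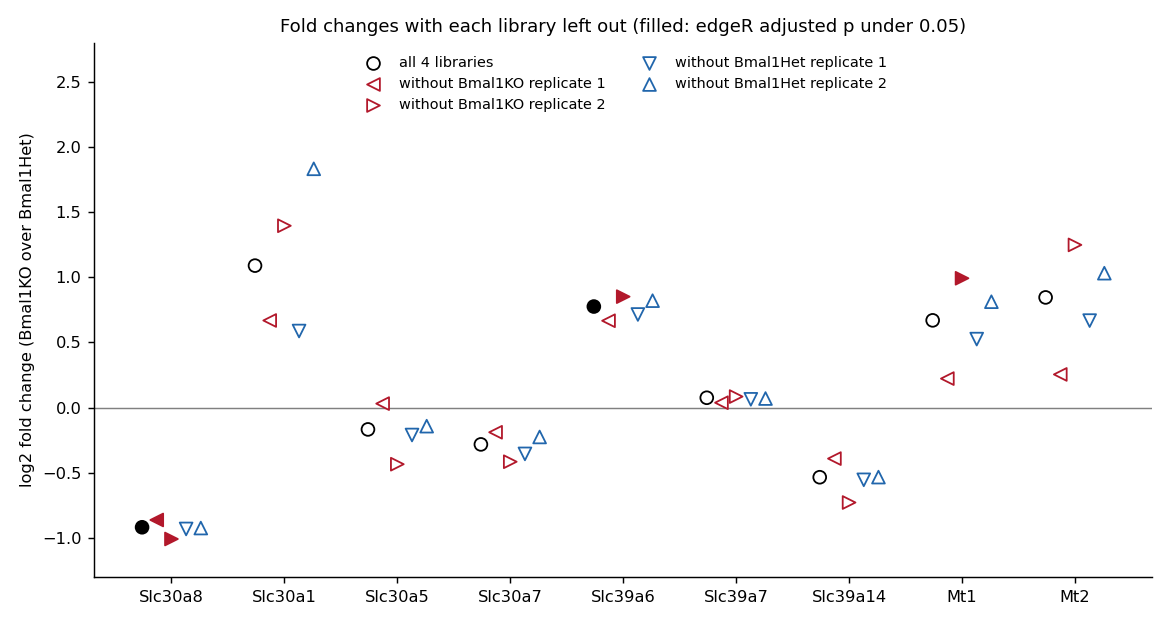
Log2 fold change (Bmal1KO over Bmal1Het) of the 9 genes with all 4 libraries (black) and with each library left out in turn; filled symbols had an edgeR adjusted p under 0.05. Slc30a8 stays between -1.01 and -0.86 and Slc39a6 between 0.67 and 0.85, while Mt1, Mt2 and Slc30a1 move widely.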

How the data were processed

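All values come from raw read counts, which the authors deposited as whole numbers for each gene symbol; their scaled table was not used here. Per the labels' protocols, the kits were RNeasy Plus Micro for RNA and SMART-Seq v4 for libraries, the second of which keeps no strand. STAR, edgeR and mm10 are named in the submitters' processing notes. The counting tool, and how it treated reads with several matches, is not stated there.

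The filter was filterByExpr (at least 10 counts, 15 in total). After TMM, edgeR 4.0.16 under R 4.3.3 gave 2-sided quasi-likelihood tests (glmQLFit and glmQLFTest) with group as the only term, with Benjamini-Hochberg adjustment over 14649 genes and a threshold of 0.05. The procedure was tested on simulated data. Replicates differed by more than sampling noise (chi-square per degree of freedom 58.1 for Bmal1KO and 38.4 for Bmal1Het). Of the gene names, 27 had become dates and 2 were duplicates, none of them used. Transcript lengths, coordinates and overlaps are from GENCODE M21 (GRCm38, the build of mm10), promoters from RefSeq (GRCm38.p6). Reads carry no molecular identifiers, so floors cover counting error only.

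The 9 genes and all lists were chosen with earlier results of these data known. Named were the 9 genes, Arntl and the 3 nearest genes in pattern. In each list, the genes past the threshold were named or, where none passed, the 2 of smallest p. Markers, Ins1, Ins2, Xist, Ddx3y and Eif2s3y are named as checks. Alternatives were DESeq2 1.42.0, voom (limma 3.58.1), scaling by RLE, upper quartile or library size alone, no filter, a filter at 5 CPM on average, a replicate block, and each library left out in turn.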

Additional observations from a re-analysis of the deposited data

How the results depend on the processing

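Slc30a8 passed under 10 of 12 alternatives (log2 fold change -1.01 to -0.86) and Slc39a6 under 9 (0.67 to 0.85), and both lost the call only with a library left out. Slc30a5 was between -0.43 and 0.03 with a library left out, and turned to 0.03 without Bmal1KO replicate 1, and Mt1 passed without Bmal1KO replicate 2. The other 5 genes kept their direction and did not pass under any. Of the 9 genes 0 to 3 passed with a library left out, and of the genes on the neighbouring pathway lists 0 to 7. Of all genes, 563 passed without Bmal1KO replicate 1, 826 without Bmal1KO replicate 2, 223 without Bmal1Het replicate 1 (57.8% higher) and 25 without Bmal1Het replicate 2 (68.0% higher). Over all genes 808 passed without a filter, 1179 by DESeq2 and 591 with the replicate block, against 372, and of those listed genes 8, 8 and 6, against 3; the cause was not tested. The replicate numbers share no label beyond the number: their deviations correlated at -0.0189, and the block changed no call among the 9 genes. Library sizes alone gave 53.1% of calls as higher, against 47.3%. With 2 libraries a group, changes of the low Slc30a1 and Mt2 were poorly resolved.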

Other observations

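Chosen after their values were seen, Slc40a1, which encodes the iron exporter ferroportin, had 8.86 and 36.9 CPM in the libraries labelled Bmal1KO, against 53.0 and 60.8 CPM in those labelled Bmal1Het (log2 fold change -1.31, edgeR adjusted p = 0.292). Trf, the gene of the iron carrier transferrin, had 13.4 and 60.5 CPM in the libraries labelled Bmal1KO, against 14.7 and 12.9 CPM. The 2 libraries labelled Bmal1KO thus differed widely from each other in both genes. Zbtb16, a gene induced by glucocorticoids, had 37 and 33 counts in the libraries labelled Bmal1KO, against 1 and 7 counts in those labelled Bmal1Het, and did not pass (edgeR adjusted p = 0.238).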
